A study of Homo sapiens with 12 samples.

Results

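The genes described are 10 members of the semaphorin system of ligands and receptors, taken by gene symbol from the deposited annotation and linked by Entrez identifier to the 25702 genes of the count table. They are the ligands SEMA7A, SEMA3A, SEMA3C and SEMA5A, the neuropilins NRP1 and NRP2, and the plexins PLXNA1, PLXNB2, PLXNC1 and PLXND1. They were chosen by symbol with their measured levels in these same libraries in view, over all 4 conditions, so the p-values given for them describe these libraries and are not independent evidence. RNA was sequenced from WI-38 cells, a normal human lung fibroblast cell line, kept with or without TGF-β. Cells of passages 2 to 3 were taken at day 1 (D1+ TGF-β if treated, D1 if not), and cells of passages 5 to 6 at day 20 (D20+ TGF-β if treated, D20 if not). There were 3 flasks per condition, 12 libraries in all. Per the methods of the study, the D20 flasks descended from a single treated and a single untreated flask, and fewer flasks were sequenced than gave RNA, so p-values measure only the spread between sister flasks of the same line. Day, passage and reseeding into fresh flasks changed together and cannot be told apart, so a change with time here is one between these groups. All comparisons with TGF-β or with time use the same 4 groups of libraries, and each group therefore enters more than 1 comparison.

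Semaphorins are guidance proteins that were first known from growing axons and that also steer the migration, adhesion and contraction of other cells. Class 3 semaphorins are secreted, bind a neuropilin and signal through a class A plexin or, for some of them, plexin D1, while transmembrane and membrane-anchored semaphorins bind plexins directly. Plexins carry a GTPase-activating domain that acts on Ras-family proteins, through which they loosen integrin adhesion and rearrange actin. Neuropilins also bind VEGF, and NRP1 has been described as a binding partner of TGF-β itself.

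In the GENCODE annotation of GRCh37 the ligand genes lie at chr15:74701630-74726299 (SEMA7A), chr7:83585093-84122040 (SEMA3A), chr7:80371854-80551675 (SEMA3C) and chr5:9035145-9546187 (SEMA5A), all on the minus strand. NRP1 lies at chr10:33466420-33625190 on the minus strand and NRP2 at chr2:206546714-206662857 on the plus strand. The plexin genes lie at chr3:126701536-126756232 (PLXNA1, plus), chr22:50713408-50746075 (PLXNB2, minus), chr12:94542353-94701451 (PLXNC1, plus) and chr3:129274057-129325519 (PLXND1, minus).

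Library totals ranged from 8674488 to 18286197 counts (median 11613084), and levels are given in cpm, that is, counts divided by library size with TMM factors. D1 replicate 2 and D20+ TGF-β replicate 3 lay farthest from the other flasks of their own group, at a root mean square log2 distance of 0.335 and 0.294, against 0.132 to 0.284 for the other libraries. Calls of members that change when 1 or both of these libraries are left out are given with both values. The 4 groups share 1 estimate of the spread per gene, so leaving out a library can also change calls in comparisons without it. All 8 fibroblast markers and all 3 myofibroblast markers passed the filter on low values in these cells, while 0 of 5 epithelial, 0 of 5 leukocyte and 0 of 5 neural markers did. Of the 5 endothelial markers only TEK passed, and CDH5 had no count in any library.

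Of the 10 members, 9 had at least 10 cpm in at least 6 libraries and were tested among 9490 genes with edgeR's quasi-likelihood test. Genes with a Benjamini-Hochberg adjusted p under 0.01 are spoken of as called. In D1+ TGF-β vs D1, 4 of the 9 were called, all higher with TGF-β, where 13.4% of all tested genes were called (6.89% higher and 6.50% lower). In D20+ TGF-β vs D20, 8 of the 9 were called, 6 higher and 2 lower, against 27.5% of all genes (12.8% higher and 14.7% lower). In D20 vs D1, 6 were called, 2 higher and 4 lower at D20, against 36.4% (18.9% and 17.6%). Between the 2 treated groups, D20+ TGF-β vs D1+ TGF-β, 2 were called, 1 in each direction, against 34.8% (17.2% and 17.7%). The median log2 fold change of the 9 members was 0.45, 0.76, 0.24 and 0.20 in these comparisons in the order given, and that of all tested genes was -0.02, 0.01, 0.01 and 0.01. Without D1 replicate 2 and D20+ TGF-β replicate 3 the counts of called members were 6, 8, 8 and 6, while the shares of all tested genes called also rose, to 27.8%, 36.1%, 48.9% and 47.3%. PLXNC1 reached the minimum in only 5 libraries. All its fold changes and p-values are from a fit of the 20434 genes with a count, in which 8.30%, 17.1%, 22.0% and 21.2% of genes were called in the same order. The ligands and neuropilins were the members called higher with TGF-β, and plexins were the members called lower. This split holds for the members only. Among the 10 other family genes tested, the ligands SEMA3B and SEMA3F were called lower at D1. At D20 the ligand SEMA6D was called higher, and the ligand SEMA6A and the plexin PLXNA3 lower. In D20+ TGF-β vs D20 the median log2 fold change was -0.29 for those 10 and -0.10 for all 19 tested family genes. These are bulk RNA values, in which fewer cells expressing a gene cannot be told apart from less RNA per cell.

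**Figure D1:**
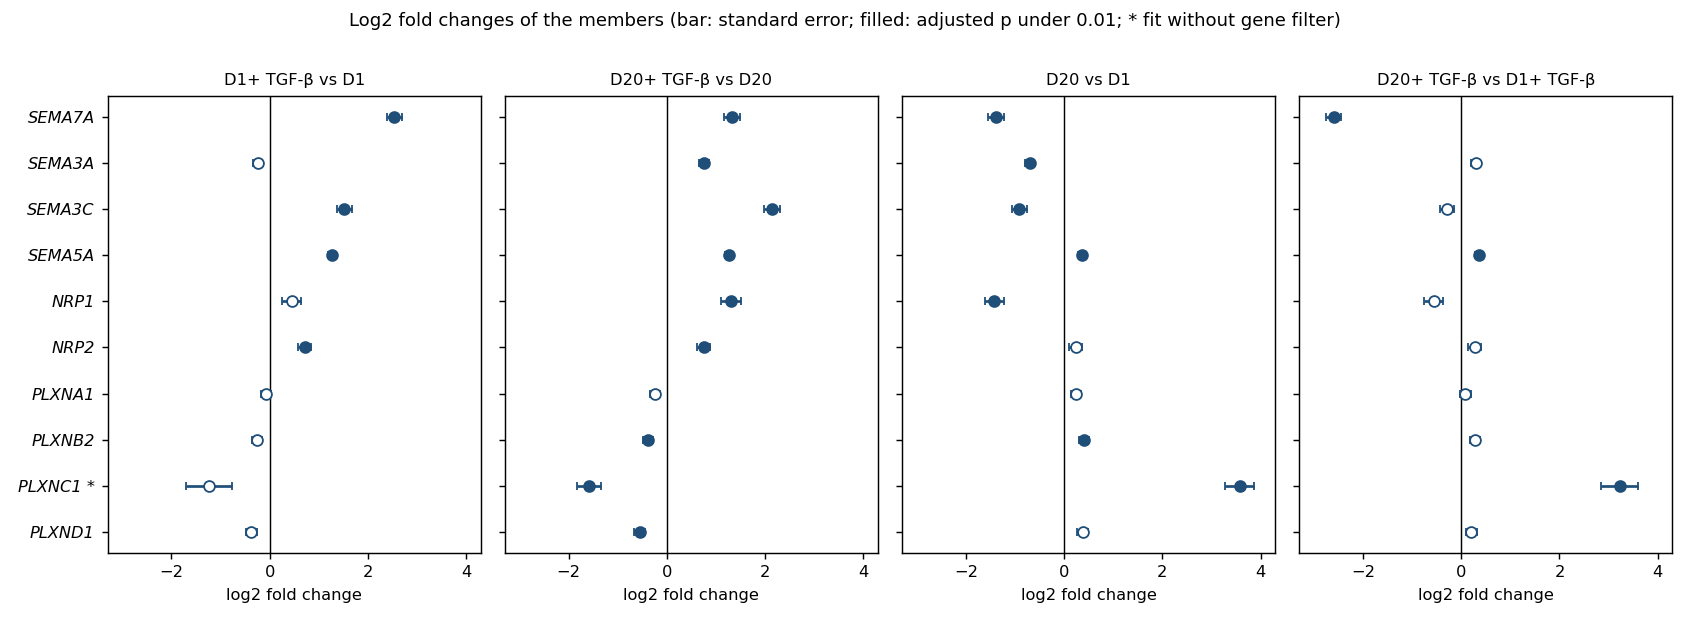
Log2 fold changes of the 10 members in the 4 comparisons (x axis), with bars for the standard error and filled points for an adjusted p under 0.01. With TGF-β at D20 the 4 ligands and both neuropilins lie right of 0 and the 4 plexins lie left of 0, and PLXNC1 reaches 3.58 in D20 vs D1.

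SEMA7A, a semaphorin held in the membrane by a lipid anchor that binds integrins as well as PLXNC1, had the widest response of the ligands to 1 day of TGF-β. It was at 35.3, 28.8 and 35.9 cpm in the 3 flasks at D1 and at 198.9, 203.3 and 177.9 cpm at D1+ TGF-β. At D20 it was at 13.1, 13.6 and 11.7 cpm, and at D20+ TGF-β at 25.7, 28.1 and 42.9 cpm. All treated flasks were above the untreated flasks of their day, and the treated flasks of D20 lay near the level of untreated D1 cells. SEMA7A was 5.82-fold higher in D1+ TGF-β vs D1 (log2 2.54, SE 0.15, adjusted p 1.41e-07, edgeR) and 2.51-fold higher in D20+ TGF-β vs D20 (log2 1.33, SE 0.17, adjusted p 4.43e-05). With time it fell by 1.38 on the log2 scale in untreated cells (adjusted p 1.92e-05) and by 2.60 with TGF-β (adjusted p 1.89e-07, edgeR). The flask at 42.9 cpm is D20+ TGF-β replicate 3, and without it the log2 response at D20 was 1.07.

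SEMA3C, a secreted class 3 semaphorin, rose with TGF-β on both days. Its cpm were 102.8, 70.5 and 115.6 at D1 and 274.8, 301.5 and 248.8 at D1+ TGF-β. They were 59.9, 50.4 and 43.8 at D20 and 230.5, 213.2 and 232.7 at D20+ TGF-β. The untreated D20 flasks were below all D1 flasks, while the treated flasks of D20 stayed above every untreated flask. The fold was 2.86 in D1+ TGF-β vs D1 (log2 1.52, SE 0.15, adjusted p 1.39e-05) and 4.41 in D20+ TGF-β vs D20 (log2 2.14, SE 0.16, adjusted p 3.16e-07, edgeR). Between the untreated days SEMA3C fell by 0.91 on the log2 scale (adjusted p 3.09e-04), and by 1.11 without D1 replicate 2. With TGF-β its log2 difference between the days was -0.29 (adjusted p 0.124, edgeR), and -0.32 with an adjusted p of 0.00852 without both libraries that stand apart.

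SEMA5A, a transmembrane semaphorin with thrombospondin repeats, had nearly the same log2 response to TGF-β on both days. Values were 103.9, 113.0 and 94.8 cpm at D1 and 253.8, 262.1 and 235.0 cpm at D1+ TGF-β. At D20 they were 133.0, 128.2 and 141.3 cpm, and at D20+ TGF-β 303.2, 313.7 and 349.0 cpm. No flask of a treated group overlapped the untreated group of its day, nor did the days overlap within a treatment. SEMA5A was 2.41-fold higher with TGF-β at D1 (log2 1.27, SE 0.08, adjusted p 2.80e-07) and 2.40-fold higher at D20 (log2 1.26, SE 0.08, adjusted p 1.27e-07, edgeR). It also rose with time, by a log2 fold change of 0.37 in untreated cells (adjusted p 0.00235) and 0.36 with TGF-β (adjusted p 0.00246), calls that 4 and 1 of 23 alternative analyses lost. The annotation has an antisense gene, SEMA5A-AS1, within it, and the use of strand in counting is not given in the sources used here.

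SEMA3A is the secreted semaphorin known for repelling axons through NRP1 and class A plexins. Of the 4 member ligands it was the only 1 called with TGF-β at D20 but not at D1. Its cpm were 240.8, 266.2 and 299.0 at D1 and 231.4, 243.4 and 207.3 at D1+ TGF-β, and the 2 groups overlapped. They were 184.3, 158.2 and 154.3 at D20 and 270.5, 276.7 and 290.8 at D20+ TGF-β. The untreated D20 flasks were the lowest of the 4 groups, and the treated D20 flasks were within the range of untreated D1 cells. The log2 fold change with TGF-β was -0.24 at D1 (SE 0.09, adjusted p 0.0817) and 0.75 at D20 (SE 0.10, adjusted p 3.69e-05, edgeR). Between the untreated days SEMA3A fell by 0.70 on the log2 scale (adjusted p 4.44e-05). Because SEMA3C and SEMA3A belong to the same class, their counts were also set against each other within each library. Such a ratio has no correction for exon length, so it is compared between libraries and does not rank the 2 genes. SEMA3C counts were 0.36 ± 0.08 (SD, n = 3) of SEMA3A counts at D1 and 1.21 ± 0.03 at D1+ TGF-β, then 0.31 ± 0.02 at D20 and 0.81 ± 0.04 at D20+ TGF-β, so the balance moved towards SEMA3C in all treated libraries.

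**Figure D2:**
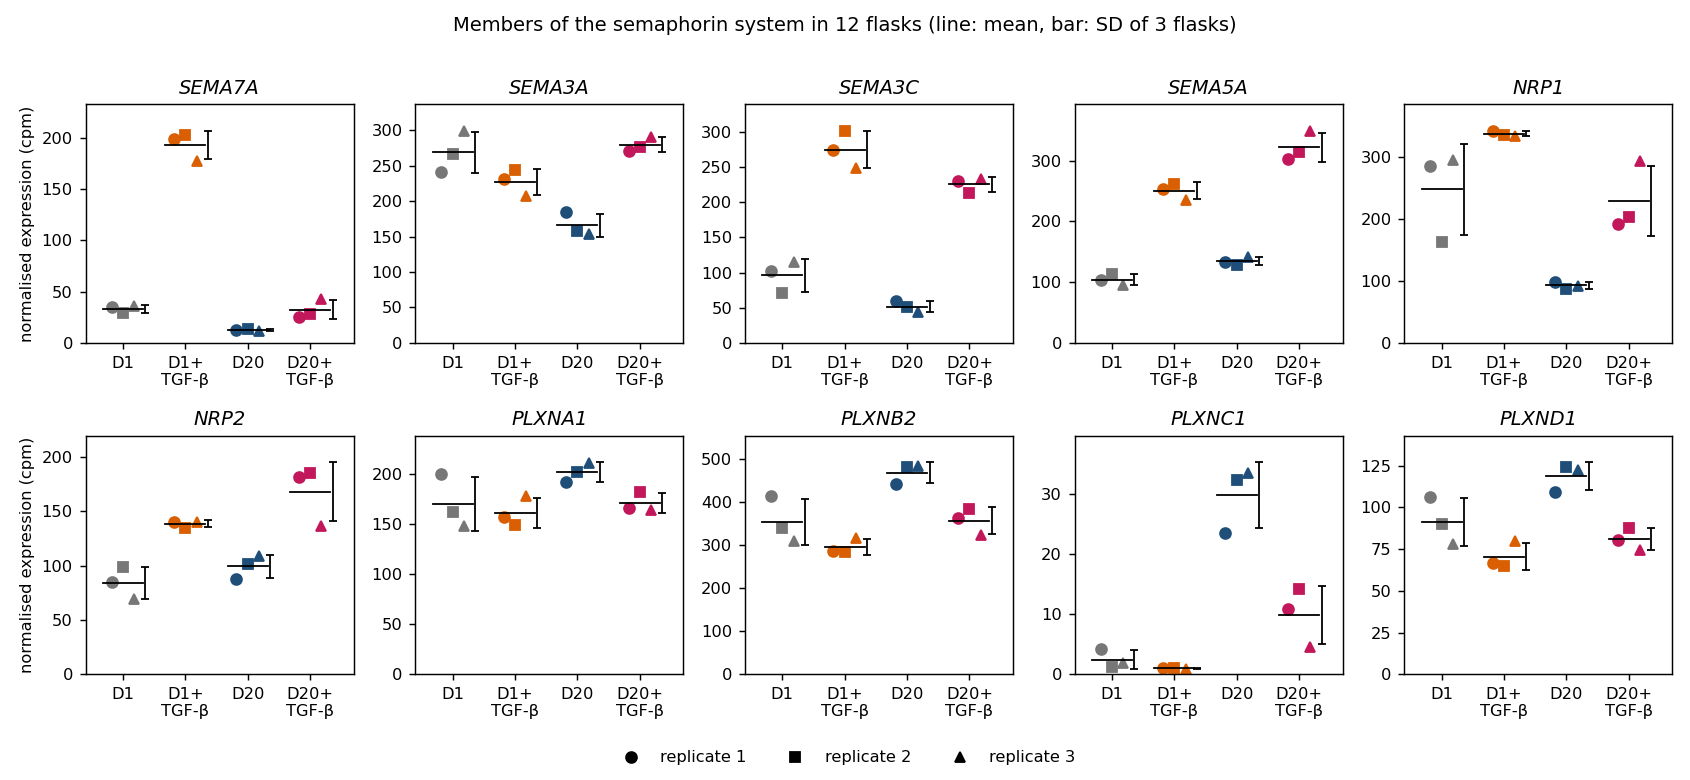
Expression of the 10 members in each of the 12 flasks in cpm, with a line for the mean and a bar for the SD of 3 flasks, and a marker shape for each replicate number. SEMA3C, SEMA5A and SEMA7A are higher in all treated flasks of their day, NRP1 has a low D1 replicate 2 at 163.5 cpm, and PLXNC1 is highest in the 3 flasks of D20.

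The promoters of SEMA7A, SEMA3C, SEMA5A and PLXNC1 are shown. These are the members with condition means spanning at least 1 on the log2 scale for which RefSeq gave a promoter. Of the 5 members of that range, NRP1 had none. The 3 ligands rose with TGF-β on both days, while PLXNC1 fell with it at D20. RefSeq gave a promoter for 8 of the 10 members. The 250 bases before the RefSeq start, which in these 4 genes is also that of the canonical GENCODE transcript, were found unchanged in GRCh37 and are printed 5′ to 3′ on the gene's strand, with capitals for CAGAC or its complement GTCTG, the short box that SMAD proteins can bind. They lie at chr15:74726300-74726549 (minus strand) for SEMA7A, chr7:80548368-80548617 (minus) for SEMA3C, chr5:9546188-9546437 (minus) for SEMA5A and chr12:94542103-94542352 (plus) for PLXNC1. The annotated SEMA3C gene reaches farther upstream than this start, to 80551675, so its window lies within the gene as annotated.
SEMA7A: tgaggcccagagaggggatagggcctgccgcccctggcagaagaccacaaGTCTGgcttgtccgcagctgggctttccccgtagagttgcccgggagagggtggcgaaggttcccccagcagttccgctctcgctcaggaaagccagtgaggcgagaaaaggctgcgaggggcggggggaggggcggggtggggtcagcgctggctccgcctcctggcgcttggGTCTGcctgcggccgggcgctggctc
SEMA3C: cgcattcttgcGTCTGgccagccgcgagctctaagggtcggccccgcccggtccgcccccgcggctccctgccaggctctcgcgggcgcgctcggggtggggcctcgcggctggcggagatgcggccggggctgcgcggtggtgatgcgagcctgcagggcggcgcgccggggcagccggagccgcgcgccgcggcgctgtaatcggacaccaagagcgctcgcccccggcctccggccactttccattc
SEMA5A: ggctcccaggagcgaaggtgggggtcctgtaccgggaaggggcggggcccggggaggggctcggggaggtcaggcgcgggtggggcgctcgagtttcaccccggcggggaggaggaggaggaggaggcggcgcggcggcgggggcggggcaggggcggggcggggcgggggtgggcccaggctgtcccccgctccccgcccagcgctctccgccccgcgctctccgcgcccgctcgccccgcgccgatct
PLXNC1: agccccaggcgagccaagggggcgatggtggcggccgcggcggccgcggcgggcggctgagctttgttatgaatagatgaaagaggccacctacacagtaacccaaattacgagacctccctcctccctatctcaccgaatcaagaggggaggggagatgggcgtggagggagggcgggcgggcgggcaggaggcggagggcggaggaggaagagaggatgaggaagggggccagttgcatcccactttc
The SEMA7A promoter held 2 such boxes, ending 196 and 22 bases before the start, that of SEMA3C held 1, ending 235 bases before it, and those of SEMA5A and PLXNC1 held none. Over 34788 RefSeq promoters of this length, 38.0% held at least 1 and 8.8% at least 2 on either strand. None of the 4 held TGANTCA, an AP-1 sequence, or GGAATG, a TEAD sequence, which 6.6% and 11.9% of promoters held. The GC box GGGCGG occurred 3 times in SEMA7A, 3 in SEMA3C, 7 in SEMA5A and 5 in PLXNC1, overlaps allowed, and in 42.6% of all promoters at least once. GC content was 70.0%, 77.6%, 82.0% and 65.2% in the same order, against a median of 58.0%. A match of letters is a description of the sequence and no binding was measured.

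The neuropilins, co-receptors with short cytoplasmic tails, were both called higher with TGF-β at D20, and differed in their course over time. NRP1 was at 284.6, 163.5 and 295.1 cpm at D1 and at 341.9, 336.1 and 334.0 cpm at D1+ TGF-β. At D20 it was at 98.5, 87.7 and 91.7 cpm, and at D20+ TGF-β at 191.4, 202.6 and 293.7 cpm. The treated flasks were above the untreated flasks on both days, and 1 flask stood away from the others of its group at D1 and 1 at D20+ TGF-β. Both are the libraries that also stand apart over all genes. NRP1 was 2.47-fold higher in D20+ TGF-β vs D20 (log2 1.31, SE 0.20, adjusted p 1.49e-04), and its log2 difference in D1+ TGF-β vs D1 was 0.45 (SE 0.19, adjusted p 0.104, edgeR). Without D1 replicate 2 the log2 difference at D1 was 0.23 (adjusted p 0.219), and without both libraries that stand apart it was again 0.23 but called (adjusted p 0.00797). Without D20+ TGF-β replicate 3 the log2 response at D20 was 1.09 (adjusted p 2.93e-04). NRP1 fell with time in untreated cells by 1.42 on the log2 scale, to a level 2.67-fold lower (adjusted p 5.02e-05, edgeR). With TGF-β its log2 difference between the days was -0.56 (adjusted p 0.0259), and it was called without D1 replicate 2 (-0.56, adjusted p 0.00172), without D20+ TGF-β replicate 3 (-0.78, adjusted p 0.00281) and without both (-0.79, adjusted p 7.98e-09).

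NRP2, the preferred neuropilin of SEMA3F, was at 85.4, 98.3 and 69.1 cpm at D1 and at 140.5, 134.6 and 140.4 cpm at D1+ TGF-β. At D20 it was at 87.6, 101.9 and 108.4 cpm, and at D20+ TGF-β at 181.4, 185.4 and 136.6 cpm. Treated and untreated flasks did not overlap within a day, while the days overlapped within each treatment. The log2 fold change with TGF-β was 0.71 at D1 (SE 0.13, adjusted p 0.00166) and 0.76 at D20 (SE 0.13, adjusted p 4.90e-04, edgeR). Its log2 differences between the days were 0.24 (adjusted p 0.154) without and 0.28 (adjusted p 0.0941) with TGF-β. Without both libraries that stand apart they were 0.35 (adjusted p 0.00252) and 0.40 (adjusted p 5.24e-04, edgeR), and both were called. Within libraries, NRP1 counts were 3.09 ± 1.32 (SD, n = 3) times NRP2 counts at D1 and 2.44 ± 0.06 at D1+ TGF-β. At D20 the ratio was 0.94 ± 0.16, and at D20+ TGF-β it was 1.06, 1.09 and 2.15 in the 3 flasks, the last being the library that stands apart. The ratio was thus below that of D1+ TGF-β in all 6 flasks of day 20. D1 replicate 2, at 1.66, was also below D1+ TGF-β, and it was below D20+ TGF-β replicate 3.

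**Figure D3:**
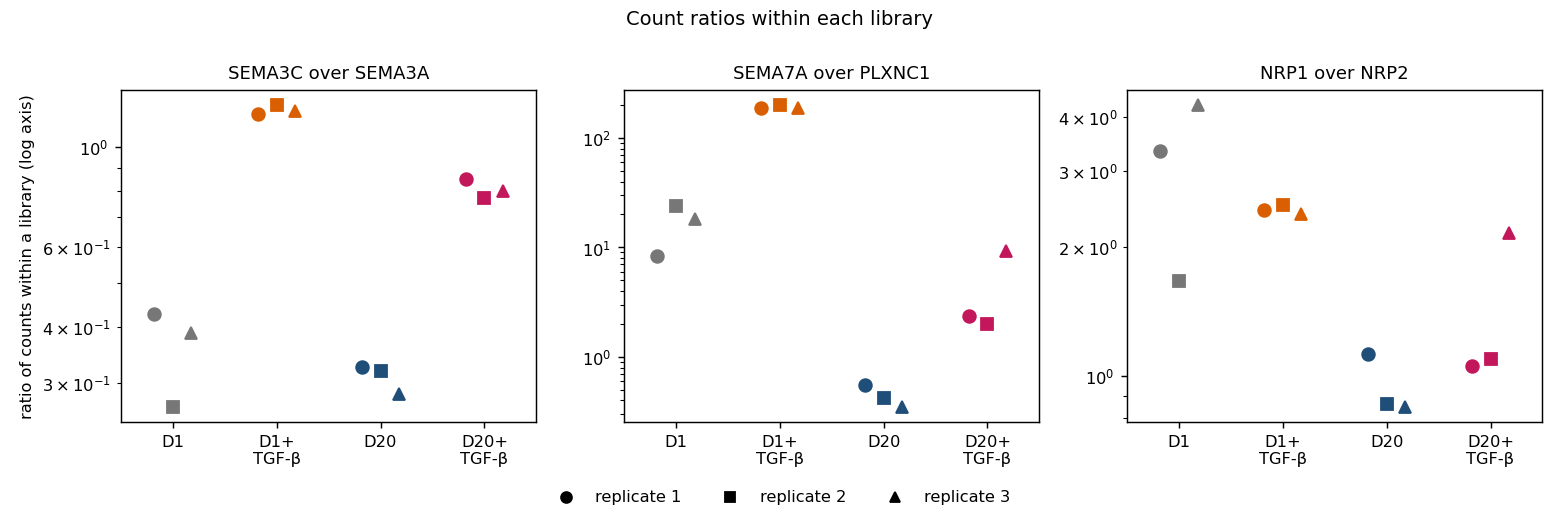
Ratios of counts within each of the 12 libraries on log axes, for SEMA3C over SEMA3A, SEMA7A over PLXNC1 and NRP1 over NRP2, with a marker shape for each replicate number. SEMA3C counts exceed SEMA3A counts only at D1+ TGF-β, and SEMA7A counts fall below PLXNC1 counts only at D20. Counts are not corrected for exon length. In cpm per kb SEMA3C was above SEMA3A at D20+ TGF-β too (36.96 and 30.2). SEMA7A (3.37) and PLXNC1 (2.98) overlapped at D20 in cpm per kb.

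The plexins called with TGF-β were all called lower, and PLXNC1 moved most. PLXNC1, a receptor of SEMA7A, was at 4.21, 1.20 and 1.96 cpm at D1 and at 1.06, 1.02 and 0.95 cpm at D1+ TGF-β. At D20 it was at 23.6, 32.4 and 33.6 cpm, and at D20+ TGF-β at 10.9, 14.2 and 4.59 cpm. All flasks of D20 and D20+ TGF-β were above those of D1 and D1+ TGF-β, and treated flasks were below untreated flasks on both days. In the fit without a filter PLXNC1 was 11.9-fold higher in D20 vs D1 (log2 3.58, SE 0.29, adjusted p 2.36e-10) and 9.37-fold higher between the treated groups (log2 3.23, SE 0.38, adjusted p 2.25e-07, edgeR). With TGF-β it fell at D20 by 1.58 on the log2 scale (SE 0.24, adjusted p 1.31e-05), and by 1.27 without D20+ TGF-β replicate 3. At D1 the log2 difference was -1.23 (SE 0.46, adjusted p 0.0807), at levels near 1 to 4 cpm. It was called at -1.59 (adjusted p 0.00814) without D1 replicate 2, at -1.23 (adjusted p 0.00256) without D20+ TGF-β replicate 3 and at -1.59 (adjusted p 5.84e-07) without both. D20+ TGF-β replicate 3 has no part in this comparison. Its removal left the log2 difference at -1.23, and the call came with the changed estimate of spread.

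PLXNC1 overlaps CEP83 on the opposite strand. CEP83 was at 11.04 ± 0.50 cpm (SD, n = 3) at D1 and 7.22 ± 1.06 at D20, a fall of 0.61 on the log2 scale (adjusted p 0.00172, edgeR). In D20+ TGF-β vs D20 CEP83 was higher by 0.58 (adjusted p 0.00367, edgeR). PLXNC1 moved in the opposite direction in both comparisons. Whether reads of 1 gene entered the counts of the other was not tested. TEK, the endothelial marker that passed the filter, had mean levels of 57.4 cpm (untreated) and 36.9 cpm (treated) at day 1 and of 238.0 and 121.4 cpm at day 20, and thus moved with PLXNC1. The other 4 endothelial markers had means of 1.33 cpm or less in every group, and CDH5 was at 0. Among the 5 leukocyte markers CD14 was at a mean of 5.88 cpm at D20 and of 0.35 cpm or less in the other groups, while PTPRC, carried by nearly all leukocytes, had 7 counts in the 12 libraries together and CD3E and LYZ had none. SEMA7A and its receptor moved apart. SEMA7A counts were 16.9 ± 7.93 (SD, n = 3) times PLXNC1 counts in untreated and 191.3 ± 6.85 times in treated cells of day 1. By day 20 these ratios were 0.44 ± 0.11 and 4.56 ± 4.15. Without D1 replicate 2 the untreated mean of day 1 was 13.4. PLXNC1 had few counts at day 1, and its lowest count in a library was 8. The ratios of day 1 are therefore imprecise, and their SD may understate the error. The treated flasks of day 20 had ratios of 2.35, 1.99 and 9.35, the last being D20+ TGF-β replicate 3, without which the mean was 2.17.

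PLXNB2, a receptor of class 4 semaphorins, was at 413.1, 340.4 and 308.6 cpm at D1 and at 286.0, 285.0 and 315.8 cpm at D1+ TGF-β. It was at 441.3, 481.2 and 482.4 cpm at D20 and at 363.9, 383.4 and 323.3 cpm at D20+ TGF-β. The groups overlapped at D1 and did not at D20. The log2 fold change with TGF-β was -0.26 at D1 (adjusted p 0.0821) and -0.39 at D20 (SE 0.10, adjusted p 0.00763), and that of D20 vs D1 was 0.40 (SE 0.10, adjusted p 0.00502, edgeR). The call at D20 with TGF-β was lost in 11 of 23 alternative analyses, among them the one without D20+ TGF-β replicate 3 (-0.33, adjusted p 0.0284), though not without both libraries that stand apart (-0.31, adjusted p 0.00887). That of D20 vs D1 was lost in 7 of 23, among them the one without D1 replicate 2 (0.36, adjusted p 0.0129). Between the treated days the log2 difference of PLXNB2 was 0.27 (adjusted p 0.0408), and 0.33 with a call (adjusted p 0.00452, edgeR) without both.

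PLXND1, a receptor of SEMA3E and, with neuropilins, of SEMA3C, was at 106.4, 90.0 and 77.9 cpm at D1 and at 66.8, 65.1 and 79.8 cpm at D1+ TGF-β. It was at 109.0, 124.2 and 122.6 cpm at D20 and at 80.3, 87.7 and 74.8 cpm at D20+ TGF-β. Again only the groups of D20 were apart. The log2 fold change with TGF-β was -0.38 at D1 (adjusted p 0.0268) and -0.55 at D20 (SE 0.11, adjusted p 0.00143, edgeR), a 1.47-fold lower level. In D20 vs D1 it was 0.38 (adjusted p 0.0119). Without both libraries that stand apart PLXND1 was called with TGF-β at D1 (-0.38, adjusted p 0.00925) and in D20 vs D1 (0.35, adjusted p 0.00834, edgeR), and the latter also without D20+ TGF-β replicate 3 alone (0.38, adjusted p 0.00966). PLXNA1, the class A plexin that signals for SEMA3A and other class 3 ligands, stayed between 147.4 and 211.0 cpm in all flasks. Its log2 differences in the 4 comparisons lay between -0.24 and 0.25, and none was called.

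Per length, as cpm per kb of annotated exon, the order of the members depended on the condition. At D1 the plexin PLXNB2 led with 48.7 ± 7.37 cpm per kb (SD, n = 3), followed by SEMA3A at 29.0 ± 3.15 and NRP1 at 21.5 ± 6.35. SEMA7A was the seventh of the 10 at 8.77 ± 1.04, in a range it shared with its neighbours PLXND1 and SEMA5A. At D1+ TGF-β SEMA7A came to 50.9 ± 3.58 and SEMA3C to 45.1 ± 4.32 cpm per kb. Neither could be told from the next in order, since the flasks of SEMA7A overlapped those of SEMA3C, and those of SEMA3C overlapped PLXNB2 at 40.7 ± 2.40. At D20 PLXNB2 at 64.4 ± 3.22 stood clear of all others, and PLXNA1 (17.9 ± 0.87) and SEMA3A (17.9 ± 1.76) followed with overlapping flasks. SEMA7A at 3.37 ± 0.26 and PLXNC1 at 2.98 ± 0.55 closed the order at D20, also with overlapping flasks. At D20+ TGF-β the order began with PLXNB2 (49.1 ± 4.22), SEMA3C (36.96 ± 1.75) and SEMA3A (30.2 ± 1.12), without overlap among these, and ended with PLXNC1 at 0.99 ± 0.49.

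**Figure D4:**
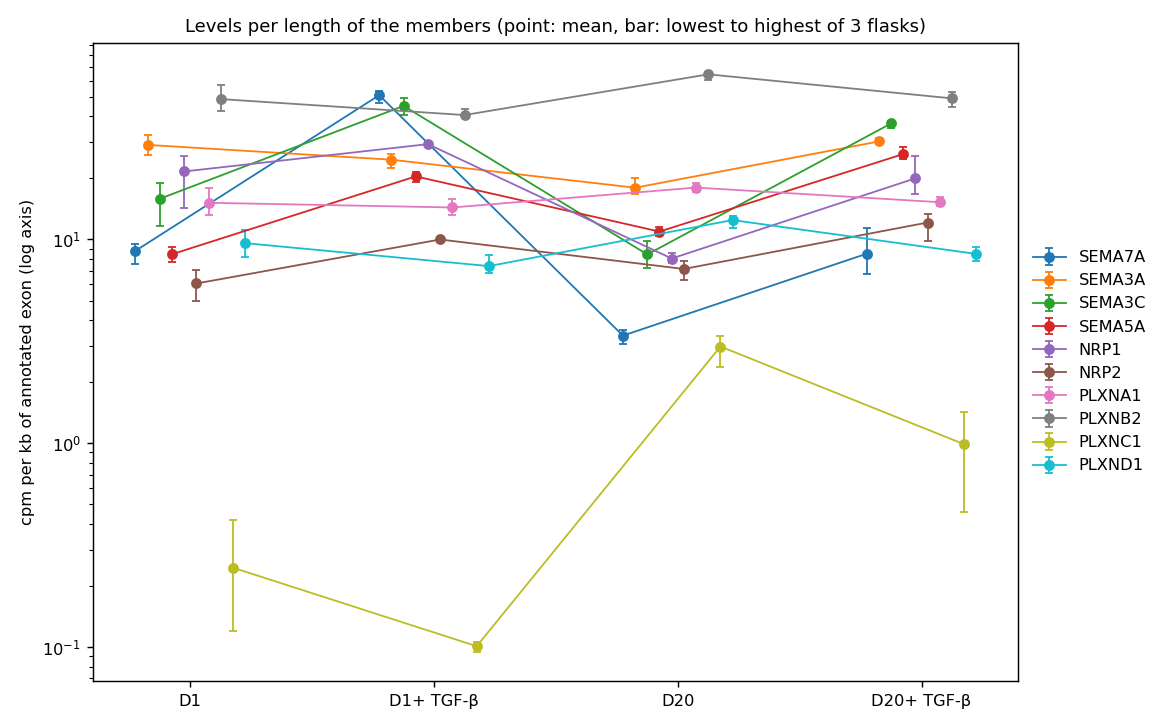
Levels of the 10 members in cpm per kb of annotated exon on a log axis, by condition, with points for the mean and bars from the lowest to the highest of 3 flasks, and lines that only join the values of a gene. SEMA7A ranges from 3.37 at D20 to 50.9 at D1+ TGF-β, while PLXNB2 stays between 40.7 and 64.4.

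To ask whether the TGF-β response itself differed between the days, the log2 response at D1 was subtracted from that at D20. Of the 9 tested members 2 were called, 1 in each direction, where 10.4% of all tested genes were called (4.51% larger and 5.87% smaller at D20), and without D1 replicate 2 the count was 4, against 18.2% of all genes, as it was without both libraries that stand apart, against 23.9%. The median difference of the members was -0.01 and that of all tested genes 0.02. SEMA7A had the smaller response at D20, by a log2 difference of -1.21 (SE 0.23, adjusted p 0.00232), and SEMA3A the larger one, by 1.00 (SE 0.13, adjusted p 2.51e-04, edgeR). NRP1 had a difference of 0.86 (SE 0.27, adjusted p 0.0377) and SEMA3C of 0.62 (SE 0.22, adjusted p 0.0547). Without D1 replicate 2 these were 1.10 (adjusted p 7.69e-04) and 0.82 (adjusted p 0.00147, edgeR), and both were called. NRP1 was also called with no gene filter and with DESeq2, with all 12 libraries kept. For SEMA5A the difference was -0.01 (SE 0.12, adjusted p 0.979) and for NRP2 0.04 (SE 0.19, adjusted p 0.904), the sign of which turned with the analysis. PLXNC1 had a difference of -0.35 (SE 0.55, adjusted p 0.828) in the fit without a filter, where 6.43% of genes were called.

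The other 21 family genes were taken from a list of all human semaphorins, plexins and neuropilins. Of these 10 were tested, 10 fell under the filter and SEMA5B had no count. In D1+ TGF-β vs D1, 2 of the 10 were called, both lower, which is 20.0% against 13.4% of all tested genes, and in D20+ TGF-β vs D20 3 were called, 1 higher and 2 lower (30.0% against 27.5%). In D20 vs D1, 4 were called (40.0% against 36.4%), and between the treated days 5 (50% against 34.8%), all higher at day 20. SEMA6A, a transmembrane ligand of class A plexins, moved most, from 16.2, 8.10 and 13.8 cpm at D1 to 53.8, 54.2 and 64.5 cpm at D20, and it was at 12.1, 13.2 and 13.8 cpm at D20+ TGF-β. All untreated D20 flasks were above all others. It was 4.60-fold higher in D20 vs D1 (log2 2.20, SE 0.19, adjusted p 8.09e-07) and 4.43-fold lower in D20+ TGF-β vs D20 (log2 -2.15, SE 0.19, adjusted p 1.55e-06, edgeR). Its call between the treated days, at log2 0.79 (adjusted p 0.00958, edgeR), was lost in 12 of 23 alternatives.

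SEMA6D, of the same class, rose where SEMA6A fell. It was at 6.53, 6.11 and 4.85 cpm at D1, at 12.5, 15.1 and 15.5 cpm at D20 and at 33.8, 32.6 and 17.7 cpm at D20+ TGF-β. The D20+ TGF-β flasks were above the D20 flasks, with a log2 fold change of 0.96 (SE 0.20, adjusted p 0.00204), or 1.20 without D20+ TGF-β replicate 3, and 1.31 in D20 vs D1 (adjusted p 4.65e-04, edgeR). SEMA3F, the secreted ligand of NRP2, fell with TGF-β at D1 by 0.72 on the log2 scale (adjusted p 4.22e-04), and SEMA3B, another class 3 ligand, by 0.64 (adjusted p 0.00818), a call that 12 of 23 alternatives lost. SEMA3B was higher between the treated days, at log2 0.92 (adjusted p 2.83e-04, edgeR). The plexin PLXNA3 fell with TGF-β at D20 by 0.45 on the log2 scale (adjusted p 0.00199). PLXNB1, the receptor of SEMA4D, rose with time by 0.60 without TGF-β (adjusted p 0.00261) and by 0.53 with it (adjusted p 0.00716), and SEMA4B rose by 0.44 (adjusted p 0.00736) and 0.46 (adjusted p 0.00796, edgeR). The PLXNB1 calls were lost in 3 and 8 of 23 alternatives and each SEMA4B call in 11 of 23, that of D20 vs D1 also without D1 replicate 2 (0.36, adjusted p 0.0244). SEMA4C, SEMA4F and PLXNB3 were called in none of the 4 comparisons.

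**Figure D5:**
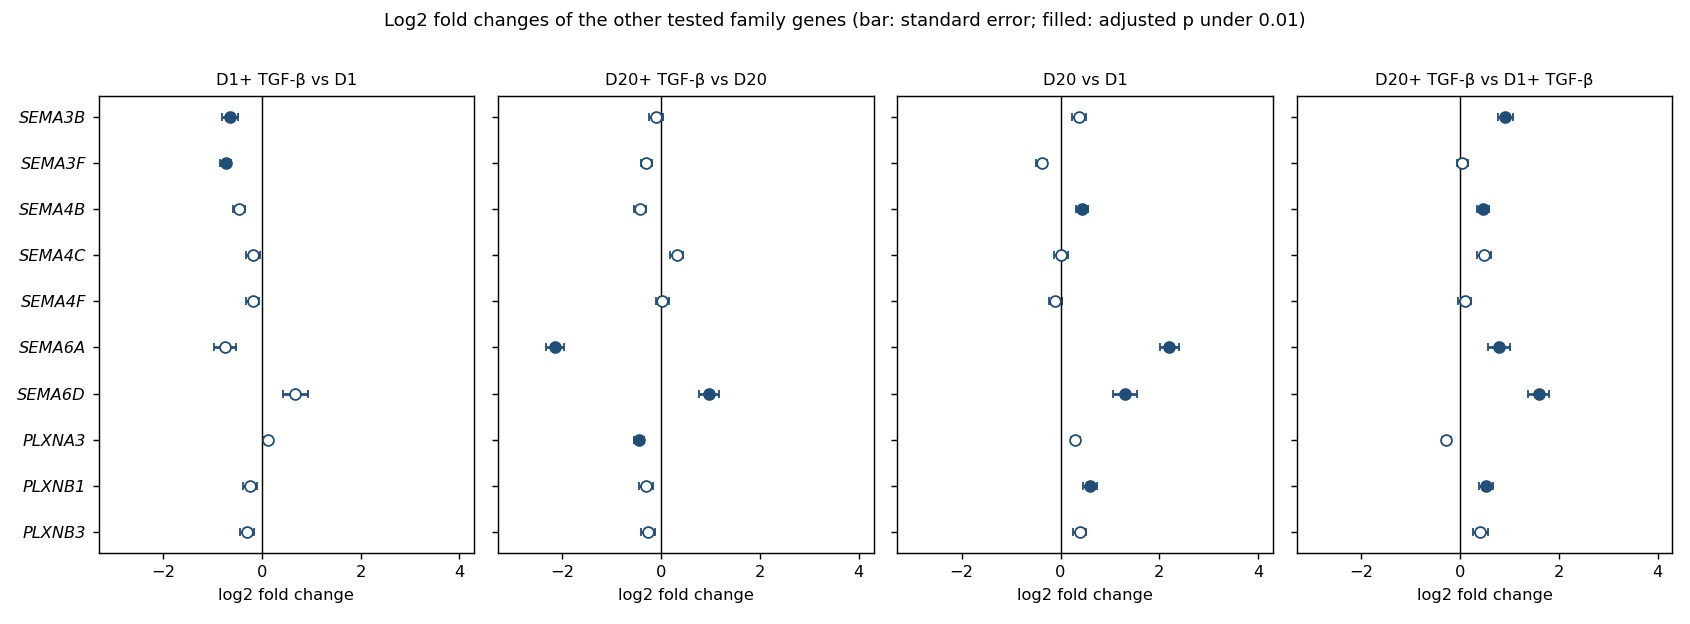
Log2 fold changes of the 10 tested family genes that are not among the members (x axis) in the 4 comparisons, with bars for the standard error and filled points for an adjusted p under 0.01. SEMA6A lies at -2.15 in D20+ TGF-β vs D20 and at 2.20 in D20 vs D1, and SEMA6D reaches 1.59 in the comparison of the treated days.

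A list of 51 partner genes of the pathway (receptor partners, other neuropilin ligands, the convertase FURIN, GTPases, exchange factors, kinases and cytoskeletal effectors) had 39 tested members. In D1+ TGF-β vs D1, 6 were called (5 higher, 1 lower), or 15.4% against 13.4% of all tested genes, and in D20+ TGF-β vs D20 16 were called (7 higher, 9 lower), or 41.0% against 27.5%. In D20 vs D1, 13 were called (8 higher, 5 lower), or 33.3% against 36.4%, and between the treated days 16 (5 higher, 11 lower), or 41.0% against 34.8%. The partner medians of the 4 comparisons lay between -0.15 and 0.06, near those of all genes. Among the partner genes called with a log2 fold change of at least 1 in size was MICAL2, an actin-oxidising enzyme. MICAL2 was at 119.0, 160.1 and 111.6 cpm at D1 and at 295.2, 308.0 and 267.2 cpm at D1+ TGF-β, log2 1.15 (adjusted p 1.82e-05), and fell by 1.07 between the treated days (adjusted p 1.57e-05, edgeR). The flasks of these groups did not overlap. The others were DPYSL3, a collapsin response mediator protein that carries semaphorin signals to the cytoskeleton, and L1CAM, an adhesion molecule that joins NRP1 in the SEMA3A receptor. In D20+ TGF-β vs D20, DPYSL3 had a log2 fold change of 1.27 (adjusted p 1.43e-05) and L1CAM one of 1.09 (adjusted p 0.00434, edgeR). L1CAM was at 18.04, 17.3 and 19.7 cpm at D20 and at 25.7, 32.4 and 60.4 cpm at D20+ TGF-β. The highest of these flasks is D20+ TGF-β replicate 3, without which the log2 fold change of L1CAM was 0.64 (adjusted p 0.00883) and that of DPYSL3 1.08 (adjusted p 7.51e-06, edgeR). The integrin subunit ITGB1, a partner of SEMA7A, rose with TGF-β at D1 by 0.66 (adjusted p 4.12e-05), and at D20 its log2 difference was 0.09 (adjusted p 0.368, edgeR). The study itself reports ITGB1 as upregulated in D20+ TGF-β vs D20, both in its own sequencing analysis and by real-time PCR. The sign is the same here, but the analyses are not alike. The study's methods speak of 48 samples where 12 libraries were used here, and its PCR used 5 samples per condition relative to GAPDH.

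The tested genes nearest in course to the 5 members whose condition means spanned at least 1 on the log2 scale were found by the root mean square difference of centred log2 cpm over the 12 libraries. For SEMA7A the nearest was XYLT1 (0.43), where the median of all tested genes was 1.44. For SEMA3C they were SLC35F2 (0.22) and FST (0.22), against a median of 1.01. SEMA5A lay closest to SGCD (0.10) and FAP (0.14), against 0.70, and NRP1 to ITGA7 (0.19) and ARHGAP22 (0.21), against 0.76. PLXNC1 lay nearest to BMP4 (0.51) and NSG1 (0.54), against 1.87. The distance says only that these courses were alike in the 12 libraries.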

How the data were processed

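RNA of WI-38 flasks was sequenced with a directional kit, each of the 12 libraries on 4 lanes. Per the labels and the study's methods, reads were trimmed (Trimmomatic) and then aligned to hg19 using Rsubread; the counting program and its use of strand are not given in the sources used here. The authors deposited a table of unnormalised counts, 25702 genes by lane, and a voom table of log2 cpm for 9412 genes. The columns were assigned by name and 0 were left unassigned.

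Lanes were summed to 12 libraries of 8674488 to 18286197 counts, and errors are those between flasks. The 9490 genes that reached 10 cpm in 6 or more libraries were tested in R 4.3.3 with edgeR 4.0.16 (TMM, quasi-likelihood F test, 1 mean per condition, common biological coefficient of variation 9.35%), with Benjamini-Hochberg adjustment over all genes tested. Members under the filter were read from the same fit to all 20434 genes with a count. An exact permutation test of 3 against 3 flasks cannot go below 0.1 and was not used. Members and gene lists were chosen with earlier results of these data known. The text names all members, the other 21 family genes, at most 3 partner genes per comparison that were called with a log2 fold change of at least 1 in size, by smallest p, and the 2 genes most like each member of wide range, 1 of which is not reported here; ITGB1, CEP83 and TEK were added after their values were seen. Exon lengths are from the GENCODE annotation of GRCh37 and promoters from RefSeq. Replicate numbers did not pair the libraries (correlations of -0.22 to 0.03 between same-numbered deviations). The alternatives were DESeq2 1.42.0, limma-voom (limma 3.58.1) on libraries or lanes, limma on the deposited log2 values, other scalings and filters, fewer libraries and a replicate block. The code was tested on simulated data.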

Additional observations from a re-analysis of the deposited data

Results flagged for a closer look

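The log2 response to TGF-β at D20 differed from that at D1 in 4 of 19 tested family genes, or 21.1% against 10.4% of all tested genes. The test was of the difference itself (edgeR, an interaction of treatment and day). SEMA3E was called besides these in the fit without a filter. SEMA3A had a difference of 1.00, with a response of -0.24 at D1 and 0.75 at D20, and its call held in 22 of 22 alternatives. SEMA7A had one of -1.21 (responses 2.54 and 1.33), and its call also held in 22 of 22. SEMA6A had one of -1.41 (responses -0.74 and -2.15), a call that 4 of 22 alternatives lost, each of them leaving out 1 library. PLXNA3 had one of -0.57 (responses 0.12 and -0.45), a call that 12 of 22 alternatives lost. SEMA3E, a ligand of PLXND1 under the filter, had one of -2.48 in the fit without a filter (responses 0.32 and -2.16), where 6.43% of genes were called. Its mean levels were 2.98 cpm (untreated) and 3.66 cpm (treated) at day 1 and 4.51 and 1.02 cpm at day 20.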

How the results depend on the processing

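With the 48 lanes as samples, which treats lanes of 1 RNA as replicates, more genes were called: 8 members, 13 family genes and 22 partner genes with TGF-β at D1, 25 partner genes with TGF-β at D20, 8, 16 and 31 between the treated days, 17 family and 28 partner genes between the untreated days, and 4, 9 and 17 for the difference of responses. DESeq2 called 10 partner genes with TGF-β at D1 where edgeR called 6. With no gene filter 4 members (NRP1 and PLXNC1 were added) and 12 family genes were called between the treated days, where 21.2% of all genes were called. For the lane, DESeq2 and block fits, and most fits without a single library, the share of all genes called is not given. Counts of calls from those fits therefore describe the lists only and cannot be set against all genes.

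Leaving out 1 library at a time, or both that stand apart, called 4 to 6 members, 5 to 11 family and 4 to 16 partner genes with TGF-β at D1, 7 to 8, 8 to 12 and 12 to 20 with TGF-β at D20, 1 to 6, 3 to 13 and 9 to 26 between the treated days, 4 to 8, 6 to 15 and 10 to 23 between the untreated days, and 2 to 4, 2 to 8 and 3 to 14 for the difference. The largest counts mostly came without D1 replicate 2 and D20+ TGF-β replicate 3, an analysis added after seeing the data, as was edgeR's filterByExpr. Without both, 11 family and 16 partner genes were called with TGF-β at D1, 6 members, 13 family and 26 partner genes between the treated days, 23 partner genes between the untreated days, and 4, 8 and 14 for the difference. The shares of all tested genes called without both were 27.8%, 47.3%, 48.9% and 23.9% in the same order, each above the share with all 12 libraries. For the difference without D1 replicate 2 alone the share was 18.2%. The single libraries that moved a count by over 1.5 times were D1 replicate 2 (4 members for the difference), D20+ TGF-β replicate 3 (11 partner genes with TGF-β at D1), D20 replicate 3 (6 family genes between the untreated days), D1+ TGF-β replicate 3 (1 member and 3 family genes between the treated days) and D20+ TGF-β replicate 2 (9 partner genes there). Family genes between the treated days numbered 4 without D1+ TGF-β replicate 2, D20 replicate 2 or 3, or D20+ TGF-β replicate 1 or 2. For the difference 2 family genes were called without D1+ TGF-β replicate 1 or 2, D20 replicate 3 or D20+ TGF-β replicate 1, and 3 partner genes without D1+ TGF-β replicate 2 or D20 replicate 3.

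With the replicate number as a block, 4 members were called with TGF-β at D1 and 7 at D20, 2 between the treated days, 6 between the untreated days and 2 for the difference; same-numbered libraries correlated from -0.22 to 0.03, and at most 1 of 3 correlated best with its own number.

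Signs turned only in members that were not called. PLXNA1 with TGF-β at D1 ranged from -0.17 to 0.057 when libraries were left out, positive only without D1 replicate 1. For the difference of responses, SEMA5A was 0.028 with no gene filter, 0.00288 with DESeq2, 0.00321 with RLE factors and 0.10 with no composition factor, and ranged from -0.13 to 0.055 when libraries were left out. NRP2 then ranged from -0.076 to 0.17 and PLXNC1 from -0.96 to 0.28, positive only without both libraries that stand apart. The cause was not tested. With no composition factor the median of all genes moved by 0.11 for the difference of responses, and by at most 0.07 in size in the comparisons.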

Other observations

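Several family genes under the filter had counts in all groups, and their values are from the fit without a filter. SEMA4D, a transmembrane ligand of PLXNB1, was at 4.16 ± 1.53 cpm (SD, n = 3) in untreated and 2.05 ± 0.48 in treated cells of day 1, and at 13.1 ± 0.15 and 5.10 ± 2.78 in those of day 20. It rose by 1.56 on the log2 scale in D20 vs D1 (adjusted p 2.77e-05) and fell by 1.34 in D20+ TGF-β vs D20 (adjusted p 2.01e-04, edgeR). SEMA3D, a secreted class 3 ligand, rose with TGF-β at D1 by 0.80 (adjusted p 0.00440), and SEMA3E fell with TGF-β at D20 by 2.16 (adjusted p 3.30e-07, edgeR). PLXNA4 fell by 1.19 between the treated days (adjusted p 0.00309) and SEMA6C, of the same class as SEMA6A, rose by 0.92 in D20 vs D1 (adjusted p 0.00806, edgeR), both at 4.59 cpm or less in every flask. PLXNA2 was called lower in D20 vs D1 (log2 -1.43, adjusted p 0.00134, edgeR) with overlapping flasks, at 4.12, 10.03 and 2.21 cpm at D1 and 2.62, 1.97 and 2.08 cpm at D20. The flask at 10.03 cpm is D1 replicate 2, and without it the log2 difference of PLXNA2 was -0.58 (adjusted p 0.0909), while that of SEMA6C was 0.88 (adjusted p 0.0176, edgeR). SEMA4G was at 4.18 to 8.44 cpm, SEMA3G, SEMA4A and SEMA6B were at 0.73 cpm or less in every flask, and none of these 4 was called in a comparison. These genes were named after their values were seen.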
